A study of Mus musculus with 4 samples.

Results

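The genes described here were 8 transcription factor genes that specify and commit cells to the T lineage: Tcf7, Lef1, Bcl11b, Ets1, Ets2, Sox4, Gfi1 and Myb. They were taken by name from the 31053 genes of a single-cell RNA sequencing series of mouse thymus, and all 8 were found in each of the 4 libraries. The first library was a wild-type (WT) thymus and the second a preleukemic Tal1/Lmo2 thymus, both at 6 weeks of age. The other 2 libraries, T-ALL#1 and T-ALL#2, were primary Tal1/Lmo2 leukemias at 3 months. All mice were of the FVB/N strain, and the proximal Lck promoter drove both transgenes in thymocytes. Each library came from 1 thymus, WT and preleukemic had 1 library each, and no test between conditions was run. Age could not be told apart from leukemia. Viable single cells were sorted with no gate on a T-cell marker. Levels are given in CPM, the unique molecular identifiers (UMIs) of a gene per 1000000 UMIs of the same cells, with Poisson 95% intervals (exact). Such an interval holds the counting error of 1 library alone and says nothing of the spread between mice.

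Thymocytes pass from a CD4- CD8- double-negative (DN) state, in which DN3 cells carry the interleukin-2 receptor chain encoded by Il2ra, to a CD4+ CD8+ double-positive (DP) state and then to single-positive cells. Notch signals in the thymus switch on Tcf7, whose product TCF-1 is an HMG-box factor that opens the T-cell program, and Lef1 encodes its close relative. Bcl11b is a zinc finger factor that closes the alternative fates at commitment, and Gfi1 is a zinc finger repressor. Ets1 and Ets2 are ETS-domain factors, Sox4 is an HMG-box factor of the SOX family, and Myb is an activator needed for thymocyte survival and receptor rearrangement. The transgene product TAL1 is a basic helix-loop-helix protein that binds E-box DNA together with E proteins, and LMO2 bridges such dimers to GATA factors.

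The 8 genes lie on 8 different chromosomes in GRCm38: Tcf7 on chromosome 11 (52252371 to 52283014, minus strand), Lef1 on 3 (131110471 to 131224356, plus), Bcl11b on 12 (107910403 to 108003602, minus) and Ets1 on 9 (32636221 to 32757820, plus). Ets2 lies on chromosome 16 (95702075 to 95721051, plus), Sox4 on 13 (28948919 to 28953713, minus), Gfi1 on 5 (107716657 to 107726036, minus) and Myb on 10 (21124935 to 21160984, minus). The RefSeq promoter table for GRCm38.p6, which holds 250 bases before and 50 bases after each start, had entries for 7 of the 8 genes. The promoters below are shown because Ets2 and Myb differed most between the preleukemic and WT libraries in opposite directions, and Bcl11b was called lower in T-ALL#2 than in both younger libraries. Capitals mark each E-box (CANNTG) and each GATA motif (GATA), searched on both strands, where an E-box and a GATA motif could overlap but did not.
Ets2, chr16:95702157-95702456, plus strand: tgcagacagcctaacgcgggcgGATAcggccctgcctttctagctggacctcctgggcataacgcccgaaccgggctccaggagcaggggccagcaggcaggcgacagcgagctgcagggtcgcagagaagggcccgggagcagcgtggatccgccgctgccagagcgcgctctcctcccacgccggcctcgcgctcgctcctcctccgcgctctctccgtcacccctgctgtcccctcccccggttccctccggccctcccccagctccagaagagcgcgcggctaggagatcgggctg
Myb, chr10:21160935-21161234, minus strand: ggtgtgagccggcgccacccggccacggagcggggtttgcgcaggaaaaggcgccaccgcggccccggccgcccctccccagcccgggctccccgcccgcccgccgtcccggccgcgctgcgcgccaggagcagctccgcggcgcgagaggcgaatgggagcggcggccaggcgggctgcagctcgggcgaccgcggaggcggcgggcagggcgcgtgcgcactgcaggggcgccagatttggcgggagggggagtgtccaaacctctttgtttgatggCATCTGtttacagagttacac
Bcl11b, chr12:108003365-108003664, minus strand: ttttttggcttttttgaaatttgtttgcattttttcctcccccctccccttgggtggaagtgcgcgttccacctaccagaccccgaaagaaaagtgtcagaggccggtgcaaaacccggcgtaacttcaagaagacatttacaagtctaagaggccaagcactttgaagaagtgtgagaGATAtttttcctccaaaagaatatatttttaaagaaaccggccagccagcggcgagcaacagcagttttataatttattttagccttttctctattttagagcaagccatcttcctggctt
The Ets2 and Bcl11b windows held 0 E-boxes and 1 GATA motif each, and the Myb window held 1 E-box and 0 GATA motifs. Of 32817 mouse promoter windows of this length, 72.3% held an E-box and 57.9% a GATA motif, so a match is common and no binding was measured here.

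Cells with more than 500 genes and under 10% mitochondrial UMIs were kept: 4220 of 5879 in WT, 5576 of 6964 in the preleukemic library, 5773 of 7726 in T-ALL#1 and 1975 of 2700 in T-ALL#2. T-ALL#2 was deposited with every barcode, so cells with at least 3416 UMIs were called first. The median UMI number of a kept cell was 3800.5, 4888, 8742 and 17581 in the same order, and summed UMIs ran from 24042062 to 70745712. Tal1 stood at 0 CPM in WT and at 410, 68.3 and 234 CPM in the preleukemic, T-ALL#1 and T-ALL#2 libraries, while Lmo2 was at 0.915 CPM in WT and at 4.48, 0.368 and 0.276 CPM, so the counts check the first transgene label and not the second. Sex-linked transcripts went against the male label of the WT and preleukemic libraries (Xist at 1380 and 1869 CPM, with 1 and 5 UMIs of Y-linked genes). They matched the labels of both leukemias, female for T-ALL#1 and male for T-ALL#2. All 4 libraries were kept under their labels, and each test below is also given without each library where that changed a call. Libraries shared at most 9 cell barcodes. Cells were classed by detection of Cd4, Cd8a and Il2ra, and as cycling where at least 1 UMI of Mki67 or Top2a was present. In Il2ra-positive DN cells 7 or 8 of 8 DN3 markers had UMIs in each library, with a summed level of 2113, 632, 1131 and 720 CPM in the order WT, preleukemic, T-ALL#1, T-ALL#2 (Erg was at 0 in both leukemias). In DP cells all 8 DP markers had UMIs in each library, at 6586, 3689, 2934 and 1391 CPM. Over all cells, erythroid markers summed to 90.1 CPM in WT and under 1 CPM elsewhere, B-cell markers to 73.4 to 191 CPM, stromal markers to 0.469 to 7.11 CPM, and innate and gamma-delta markers to 283, 1216, 16.4 and 136 CPM. The classes were not clean by these lists. Il2ra-positive DN cells carried 2213, 1661, 1070 and 593 CPM of DP markers (6 of 8 with UMIs in each library). DP cells carried 1008, 443, 2069 and 935 CPM of DN3 markers (7 or 8 of 8), more than Il2ra-positive DN cells of the same library in both leukemias. Il2ra was found in 34 of 2096, 5 of 201, 1891 of 2408 and 177 of 242 DP cells, so the leukemic DP class was mostly Il2ra-positive. A class by detection depends on depth, and a cell whose Cd4 or Cd8a was missed enters the DN classes.

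Over all cells, Ets2 was the factor that changed most in the preleukemic thymus. WT cells held 125 CPM and preleukemic cells 11.8 CPM of it, while T-ALL#1 held 81.1 CPM and T-ALL#2 25.9 CPM. The preleukemic value was the lowest of the 4 and WT the highest, and no intervals overlapped. The preleukemic level of Ets2 was 10.7-fold below that of WT, with a 95% interval of 10.7 to 12.9 CPM. DP cells, in which Ets2 was highest in each library, were 49.7% of WT and 3.6% of preleukemic cells, and the fold within a class was smaller, at 2.76 in Il2ra-positive DN, 6.73 in Il2ra-negative DN, 3.81 in Cd8a-only and 5.98 in DP cells. Its relative Ets1 stood at 743, 462, 612 and 427 CPM in the same order. Ets1 was highest in WT and lowest in T-ALL#2, and no pair of libraries was 2-fold apart. Cycling cells were 20.6%, 23.8%, 47.9% and 61.9% of the libraries in that order. Bcl11b, Ets1 and Sox4 were lower in cycling cells, as given below. In cycling and in other DP cells alike, Ets1 was lowest in the preleukemic library. The part of the cycling shares in the levels over all cells was not tested.

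Myb moved opposite to Ets2. It was at 251 CPM in WT and 580.2 CPM in preleukemic cells, and at 276 CPM in T-ALL#1 and 183 CPM in T-ALL#2. The preleukemic thymus stood above the other 3 libraries, at 2.31-fold the WT level. Ets2 and Myb were the 2 factors called between the preleukemic and WT libraries, where a call means at least 2-fold apart with separate intervals among genes at 10 CPM or more in either library. Of 8412 genes tested in this comparison 4.46% were called higher and 4.85% lower, so 1 factor of 8 in each direction is to be read against those shares. When every cell was given equal weight, Myb was no longer called. In such a summed level, fewer expressing cells and less RNA per expressing cell cannot be told apart. Sox4 and Gfi1 leaned the same way as Myb without reaching 2-fold, with 459.9 and 778 CPM for Sox4 and 39.3 and 64.9 CPM for Gfi1 in WT and preleukemic cells.

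Tcf7 and Bcl11b, the factors at the start and the close of commitment, differed little between the 2 younger libraries. Tcf7 stood at 869 and 891 CPM in WT and preleukemic cells and at 716 and 533 CPM in the 2 leukemias. Both leukemias were below both younger libraries, by less than 2-fold in each pair. Bcl11b was at 738, 979.9, 801 and 159.9 CPM in the same order. T-ALL#2 stood apart from the other 3 libraries, which lay less than 2-fold from each other. Lef1 was at 494, 372, 803 and 562 CPM, lowest in the preleukemic library and highest in T-ALL#1.

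**Figure D1:**
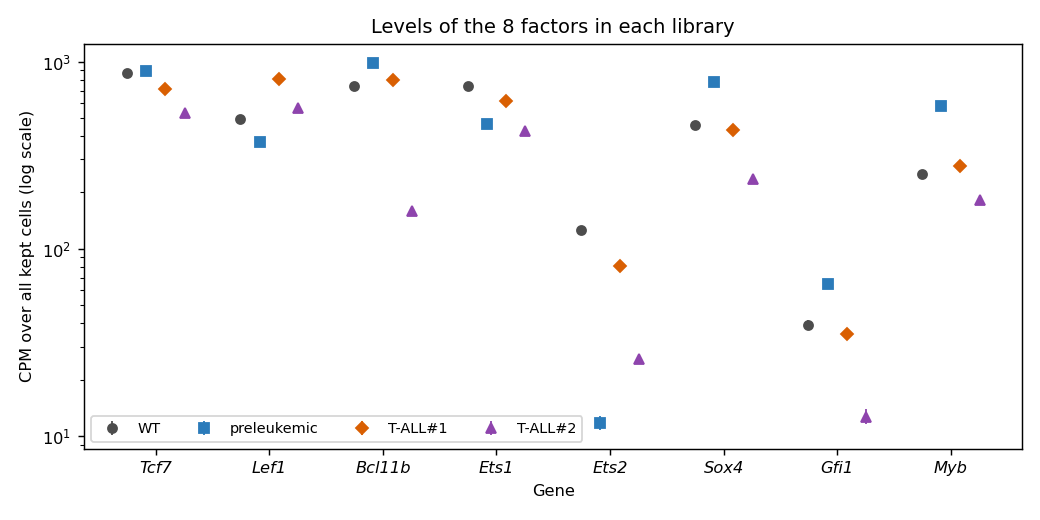
Level of each factor over all kept cells of each library, in CPM on a log axis, with exact Poisson 95% intervals that are mostly smaller than the points. Ets2 was lowest in the preleukemic library (11.8 CPM), Myb was highest there (580.2 CPM), and Bcl11b was lowest in T-ALL#2 (159.9 CPM).

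Against the preleukemic library, T-ALL#1 had more Lef1 (2.16-fold) and Ets2 (6.88-fold) and less Myb (2.10-fold lower). In this comparison 4.63% of 8356 genes were called higher and 11.8% lower, and the median gene stood at -0.15 on the log2 scale. Relative to that median, Lef1 was 2.39-fold and Ets2 7.64-fold higher, and Myb was 1.89-fold lower and so no longer past 2-fold. T-ALL#2 had more Ets2 (2.20-fold) and less Bcl11b (6.13-fold), Gfi1 (5.10-fold), Sox4 (3.28-fold) and Myb (3.17-fold) than the preleukemic library. Of 8245 genes, 3.95% were called higher and 27.1% lower there, with the median gene at -0.48. Relative to the median, Bcl11b was 4.40-fold, Gfi1 3.67-fold, Sox4 2.36-fold and Myb 2.28-fold lower, while Ets2 was 3.06-fold and Lef1 2.10-fold higher. Lef1 was thus higher than in the preleukemic library in both leukemias on that scale.

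Against WT, T-ALL#1 had 0 factors called, in a comparison in which 4.72% of 8355 genes were called higher and 12.9% lower. No test was run on that count. The factor furthest from WT was Lef1, with a log2 difference of 0.70, which became 0.88 relative to the median gene (-0.18) and 1.01, past 2-fold, with TMM scaling. T-ALL#2 had less Ets2 (4.85-fold), Bcl11b (4.61-fold) and Gfi1 (3.09-fold) than WT, where 30.2% of 8279 genes were called lower and 5.19% higher. Relative to the median gene of that comparison (-0.54), Ets2 was 3.34-fold, Bcl11b 3.18-fold and Gfi1 2.13-fold lower, and Lef1 was 1.65-fold higher. The leukemias therefore differed from each other most in Bcl11b, at 801 against 159.9 CPM. The comparisons share the WT or the preleukemic library, so they are not independent of each other. T-ALL#2 was also the deepest library, the only one processed with Cell Ranger 4 and the only one deposited with all barcodes. Its cells were called from 3416 UMIs, while the deposited barcodes of the other libraries began at 500 or 503 UMIs. The median WT DP cell, at 2889.5 UMIs, was under the T-ALL#2 limit. By sex-linked transcripts T-ALL#2 was the only male library (Xist at 0.0828 CPM, with 4413 UMIs of Y-linked genes). The part of these in its values was not tested.

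Il2ra-positive DN cells were the class nearest to DN3, with no limit on Cd44, unlike the paper's DN3 filter. Cells lacking a Cd8b1 UMI were 46 of 54 in WT and 384 of 465 in the preleukemic library. In T-ALL#1 they were 152 of 388 and in T-ALL#2 229 of 498, so most leukemic cells of this class carried Cd8b1. The part of such cells in the levels below was not tested. In this class the picture for Lef1 was sharper. Its level was 237 CPM in the 54 WT cells, 377 CPM in 465 preleukemic cells, 812 CPM in 388 cells of T-ALL#1 and 577 CPM in 498 cells of T-ALL#2. The 4 libraries were ordered WT, preleukemic, T-ALL#2, T-ALL#1, and each neighbouring pair had separate intervals. Against WT, Lef1 was up 3.43-fold in T-ALL#1 (with 4.92% of genes called higher and 10.6% lower) and 2.44-fold in T-ALL#2 (with 3.17% called higher). It was called higher against the preleukemic library in T-ALL#1 (2.15-fold), with 4.17% of genes called higher.

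Ets2 was low in Il2ra-positive DN cells of each library, at 27.0 CPM in WT, 9.78 CPM in preleukemic, 39.8 CPM in T-ALL#1 and 19.9 CPM in T-ALL#2 cells. The intervals of WT (16.7 to 41.3 CPM, from 21 UMIs) overlapped those of both leukemias, and the preleukemic value was below all others. Ets2 was the 1 factor called lower between preleukemic and WT cells of this class, with 4.79% of genes called lower and 3.97% higher. Bcl11b stood at 639.5, 804, 612 and 146 CPM and Myb at 389.9, 541, 256 and 186 CPM in the order WT, preleukemic, T-ALL#1, T-ALL#2. For both, the preleukemic library was highest and T-ALL#2 lowest. Bcl11b, Sox4, Gfi1 and Myb were called lower in T-ALL#2 than in both WT (22.1% of genes lower) and preleukemic cells (21.3% lower), from 2.10-fold for Sox4 and Myb against WT to 5.51-fold for Bcl11b against preleukemic cells. Relative to the median gene of this class (log2 -0.44 against WT and -0.40 against preleukemic cells), Sox4 was 1.55-fold and 1.68-fold lower and Myb 1.55-fold lower than WT, all under 2-fold. Lef1 was then 2.02-fold higher than in preleukemic cells. Myb was also called lower in T-ALL#1 than in preleukemic cells of this class (2.11-fold, with 9.18% of genes lower, and 1.96-fold relative to the median gene at -0.11), and Ets2 was called higher than there in both T-ALL#1 (4.07-fold) and T-ALL#2 (2.03-fold, with 3.05% of genes higher).

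The preleukemic thymus held most of its cells, 3520, among the DN cells without Il2ra, and 5 of the 8 factors were called there against WT. Myb was at 755 CPM against 129.6 CPM in 385 WT cells, a 5.83-fold difference. Gfi1 was at 75.7 against 21.3 CPM and Sox4 at 957 against 359.9 CPM, 3.56-fold and 2.66-fold higher. Ets2 was at 6.85 against 46.2 CPM and Lef1 at 376 against 769 CPM, 6.73-fold and 2.05-fold lower. Of 8579 genes in this class 8.81% were called higher and 6.78% lower, beside 3 and 2 of the 8 factors. The WT cells of this class also carried 2008 CPM of mature T-cell markers (7 of 7 with UMIs) and 3240 CPM of myeloid and dendritic markers (7 of 7), against 226 CPM (7 of 7) and 159 CPM (5 of 7) in the preleukemic cells. Markers of innate and gamma-delta T cells, 5 of 5 with UMIs in both, were at 540.3 and 1577 CPM. DP markers, 6 of 8 with UMIs in both, were at 530 CPM in WT and 1207 CPM in preleukemic cells. The paper reports lower Cd4 and Cd8a mRNA in preleukemic thymocytes, so the class may not hold the same stages in each library. The part of these other cells and stages in the differences was not tested.

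In DP cells, the factor that differed most between the preleukemic and WT libraries was Ets2. Its level was 208.5 CPM in 2096 WT cells, 34.9 CPM in 201 preleukemic cells, 138 CPM in 2408 cells of T-ALL#1 and 44.8 CPM in 242 cells of T-ALL#2. WT was highest, and the preleukemic and T-ALL#2 intervals overlapped. Ets2 was 5.98-fold lower in preleukemic than in WT DP cells and the only factor called there, with 4.77% of genes called lower and 2.7% higher. Ets1 was lower there as well, with a log2 difference of -0.74, short of 2-fold. Myb, which was called over all cells, was at 382 CPM in WT and 334 CPM in preleukemic DP cells. Bcl11b was at 872, 863, 1022 and 210.5 CPM, and T-ALL#2 again stood below the other 3 libraries, by 4.14-fold against WT. Lef1 was at 314, 348, 874 and 586 CPM, with both leukemias above both younger libraries, and it was called in T-ALL#1 against WT (2.78-fold, with 5.39% of genes higher) and not in T-ALL#2 (log2 difference 0.90). Genes called lower in T-ALL#1 against WT DP cells were 9.7%, and no factor was among them. Against preleukemic DP cells, Lef1 (2.51-fold) and Ets2 (3.95-fold) were called higher in T-ALL#1, with 5.01% of genes higher and 7.14% lower. In T-ALL#2 Bcl11b (4.10-fold), Sox4 (2.51-fold) and Gfi1 (5.59-fold) were called lower than in preleukemic DP cells, with 18.5% of genes lower and 3.82% higher. In T-ALL#2 against WT, where 27.8% of genes were called lower and 5.74% higher, Bcl11b, Ets2, Gfi1 (4.65-fold) and Sox4 (2.05-fold) were called. Relative to the median gene of DP cells (log2 -0.52 against WT and -0.39 against preleukemic cells), Sox4 was 1.43-fold and 1.91-fold lower, under 2-fold in both, and Lef1 was 2.68-fold and 2.21-fold higher. DP cells of the preleukemic library also carried 1074 CPM of innate and gamma-delta markers (3 of 5 with UMIs) against 304 CPM (5 of 5) in WT, 8.19 CPM (4 of 5) in T-ALL#1 and 143 CPM (2 of 5) in T-ALL#2, and the part of these in its values was not tested.

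In WT, cells with Cd4 alone differed from DP cells in the factors. In the 917 WT cells with Cd4 alone, Lef1 stood at 857 CPM and Ets1 at 954 CPM, while Myb was at 64.8 CPM and Gfi1 at 9.06 CPM. In WT DP cells the same 4 genes were at 314, 688, 382 and 62.1 CPM. Lef1 and Ets1 were therefore higher, and Myb and Gfi1 lower, in the later class, with separate intervals for each. The preleukemic library had only 46 cells with Cd4 alone, in which Lef1 was at 315 CPM and Myb at 435 CPM.

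**Figure D2:**
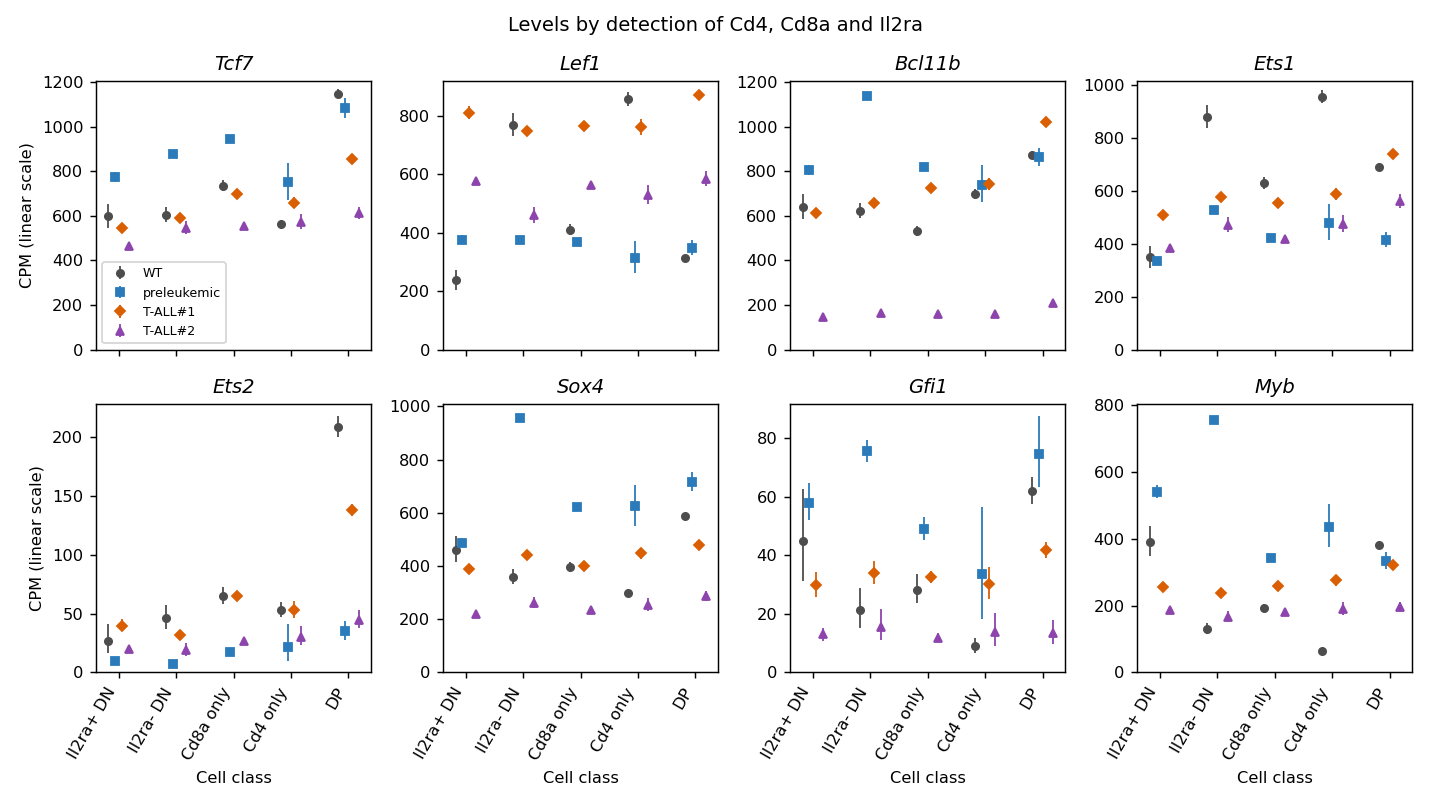
Level of each factor in CPM on a linear axis from 0, by class of Cd4, Cd8a and Il2ra detection and by library, with exact Poisson 95% intervals. Ets2 peaked in DP cells of each library (208.5, 34.9, 138 and 44.8 CPM), and Bcl11b of T-ALL#2 lay under the other libraries in all 5 classes.

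The share of cells with a UMI followed these levels once every cell was thinned to 2000 UMIs, which kept 3229 WT cells, 5226 preleukemic cells, 5679 cells of T-ALL#1 and 1975 of T-ALL#2. Ets2 was found in 23.8% of WT and 1.91% of preleukemic cells, and in 21.9% of T-ALL#1 and 6.63% of T-ALL#2 cells. Without thinning these shares were 39.6%, 7.19%, 52.4% and 31.4%, an order that depth changed. Bcl11b was found in 71.3%, 80.6%, 79.6% and 30% of thinned cells (87.1%, 94.8%, 98.0% and 86.5% unthinned), and Myb in 34.5%, 61.5%, 45.1% and 27.8% (52.7%, 82.1%, 84.5% and 83.4% unthinned). As a background, cells with at least 3 UMIs from 2 or more myeloid and dendritic markers and no Cd3d, Cd3e or Cd3g UMI were counted. Bcl11b was found in 1 of 11, 2 of 14, 0 of 6 and 0 of 5 such cells and Ets2 in 0, 0, 0 and 3, in the order WT, preleukemic, T-ALL#1, T-ALL#2, at median depths of 3014, 3937.5, 4025.5 and 4678 UMIs. With 0 of 14 preleukemic cells the exact binomial 95% interval for Ets2 reaches 23.2%. Its preleukemic share of cells, thinned or not, therefore cannot be set above this background. The upper limits for Ets2 in WT (28.5%), T-ALL#1 (45.9%) and T-ALL#2 (94.7%) also lay above its thinned shares. For Bcl11b this held in T-ALL#2 alone (52.2%). Myb was found in 2 of 11, 2 of 14, 1 of 6 and 1 of 5 such cells. Its upper limits of 51.8%, 64.1% and 71.6% in WT, T-ALL#1 and T-ALL#2 lay above its thinned shares, unlike 42.8% in the preleukemic library. Those thinned shares cannot be set above this background either. The same rule with B-cell markers gave 1, 8, 4 and 4 cells in the same order. Ets1 was found in 0, 8, 4 and 3 of these, at 520 CPM in the preleukemic library. Bcl11b was found in 0, 1, 0 and 1 and Ets2 in 0, 0, 0 and 1. In T-ALL#2 droplets of under 100 UMIs, which hold free RNA, Bcl11b stood at 158 CPM and Ets2 at 21.5 CPM, close to their levels in the kept cells (159.9 and 25.9 CPM).

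The median cell carried UMIs of 4 of the 8 factors at 2000 UMIs in WT, preleukemic and T-ALL#1 cells and of 3 in T-ALL#2. At least 1 factor was missing from nearly every cell: all 8 were found in 0.434% of WT, 0.0383% of preleukemic and 0.563% of T-ALL#1 cells. In T-ALL#2 all 8 were found in 0 of 1975 cells, which allows a share of up to 0.152% (3 counts of the total). None was found in 0.867%, 1.11%, 0.581% and 2.38% of cells. At this depth a missing UMI does not show that a cell lacks the transcript.

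**Figure D3:**
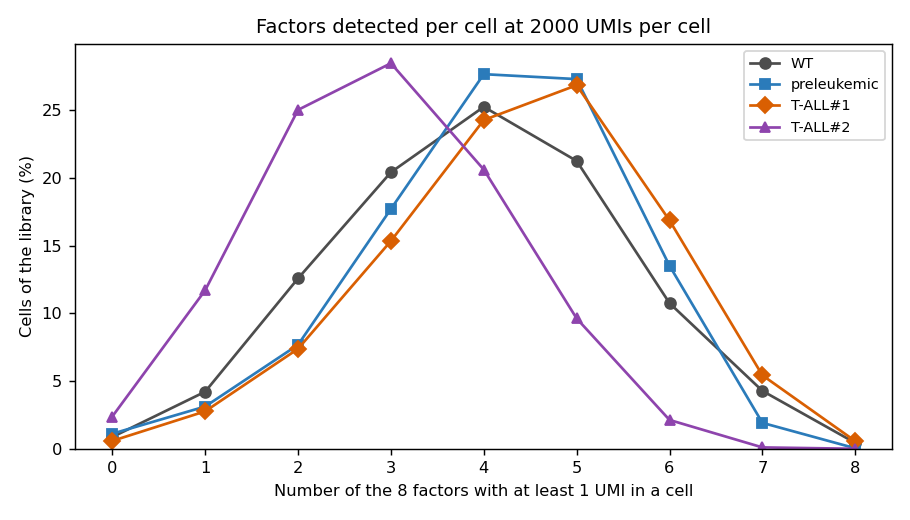
Share of cells of each library, in percent, by the number of the 8 factors with at least 1 UMI, after thinning to 2000 UMIs per cell. The T-ALL#2 curve lies to the left, with its largest share at 3 factors (28.5%), while T-ALL#1 has its largest share at 5 (26.8%).

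The libraries served as 4 replicates for comparisons inside a thymus, which were tested on summed UMIs with edgeR's quasi-likelihood test, with the library as a block and Benjamini-Hochberg adjustment over all genes. The first compared Il2ra-positive DN cells with DP cells. Ets2 was 27.0, 9.78, 39.8 and 19.9 CPM in DN cells of WT, preleukemic, T-ALL#1 and T-ALL#2 libraries and 208.5, 34.9, 138 and 44.8 CPM in their DP cells. It was lower in DN cells in 4 of 4 libraries, and across libraries the ranges of the classes overlapped, since DN cells of T-ALL#1 stood above DP cells of the preleukemic library. Its log2 change was -1.77 (SE 0.252, n = 4 libraries, edgeR adjusted p = 0.0324). Ets2 was the 1 factor called, where 2.84% of 10400 genes were called, 1.59% lower and 1.25% higher. The call was lost without the preleukemic library (edgeR adjusted p = 0.126), without T-ALL#1 (0.0887) and without the block (0.424).

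Tcf7 and Ets1 were lower in DN cells in 4 of 4 libraries as well but missed the threshold. Tcf7 was at 597, 774, 543 and 466 CPM in DN cells and 1148, 1083, 853 and 610.4 CPM in DP cells (log2 change -0.53, SE 0.114, edgeR adjusted p = 0.0515). Ets1 had a log2 change of -0.51 (SE 0.12, edgeR adjusted p = 0.0566). Over 13 alternatives Tcf7 passed in 6, with adjusted p from 0.00297 to 0.432, and Ets1 in 5, with adjusted p from 0.0105 to 0.505. Without WT, the edgeR adjusted p of Tcf7 was 0.0492. Sox4 (log2 change -0.31), Bcl11b (-0.37) and Gfi1 (-0.27) also had lower values in DN cells in 4 of 4 libraries without a call. Myb differed in direction between libraries, with a log2 ratio of DN over DP cells of 0.70 in the preleukemic library, 0.03 in WT, -0.08 in T-ALL#2 and -0.33 in T-ALL#1. Lef1 was nearly level, with a log2 change of -0.02 (SE 0.107).

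**Figure D4:**
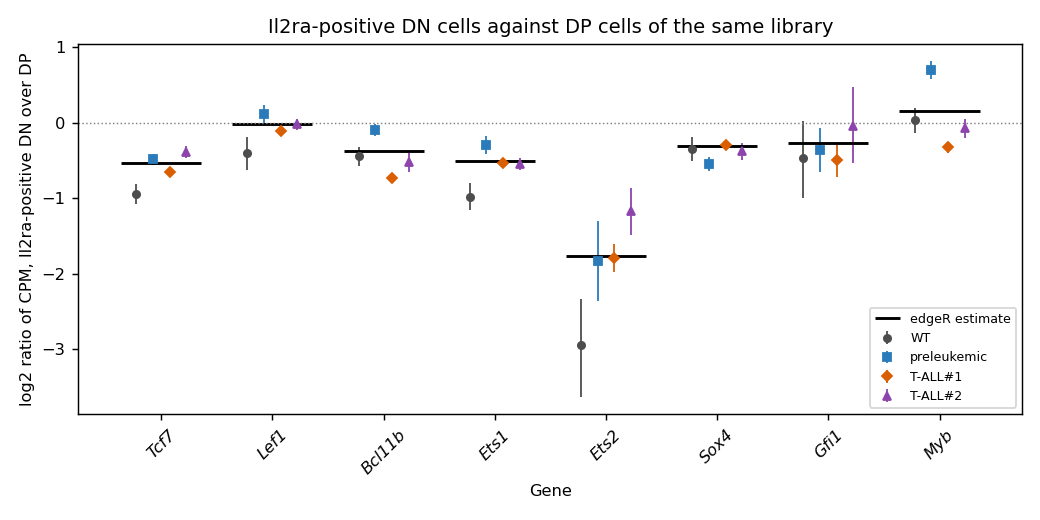
Log2 ratio of CPM in Il2ra-positive DN cells over DP cells of the same library, with 95% counting intervals, and the edgeR estimate over the 4 libraries as a black line. Ets2 lies below 0 in each library (estimate -1.77), and Myb lies above 0 in the preleukemic library (0.70) and below it in T-ALL#1 (-0.33).

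Bcl11b, Ets1 and Sox4 were called lower in cycling cells over all classes, in DP cells and in Il2ra-positive DN cells. Of all genes tested, 26.6%, 27.4% and 16.5% were called lower in these comparisons in turn. Inside DP cells, Bcl11b was at 585, 654, 790.2 and 190.1 CPM in cycling cells of WT, preleukemic, T-ALL#1 and T-ALL#2 libraries and at 1247, 1325, 1442 and 254 CPM in the others. Cycling cells were lower in 4 of 4 libraries, with the 95% interval of the ratio below equality in each, at a log2 change of -0.72 (SE 0.125, edgeR adjusted p = 0.000579). Sox4 was at 357, 563, 411 and 239 CPM in cycling and 886, 1056, 597 and 387 CPM in other DP cells, again lower in 4 of 4 libraries (log2 change -0.72, SE 0.131, edgeR adjusted p = 0.000754). Ets1 was at 444, 334, 585 and 484 CPM in cycling and 1008, 589, 1012 and 723 CPM in other DP cells (log2 change -0.70, SE 0.121, edgeR adjusted p = 0.000503). The 3 genes thus fell in each of the 4 thymi. In DP cells, 16.4%, 17.1% and 16.1% of genes tested had log2 changes as low as those of Bcl11b, Ets1 and Sox4 in turn.

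In all, 7 of the 8 factors were called lower in cycling DP cells, where 51.9% of 9748 genes were called, 27.4% lower and 24.4% higher, and the median gene stood at -0.07. Ets2 fell by 0.79 on the log2 scale (SE 0.153, edgeR adjusted p = 0.00123), Myb by 0.48 (adjusted p = 0.00927), Lef1 by 0.45 (adjusted p = 0.0189) and Tcf7 by 0.35 (adjusted p = 0.0193). The WT library had the largest drop for 6 of these 7 genes, and T-ALL#1 for Ets2. Gfi1 had a log2 change of -0.03 (SE 0.137, edgeR adjusted p = 0.880) and was the only factor without a call. With edgeR's test, the Lef1 call was lost without WT (adjusted p = 0.0678), preleukemic (0.0634) or T-ALL#1 (0.0962), and the Tcf7 call without preleukemic (0.119), T-ALL#1 (0.0967) or T-ALL#2 (0.0744). Cycling DP cells had 2.31 to 4.05 times the median UMIs of other DP cells, so the classes differ in depth. After thinning to 2000 UMIs only WT and T-ALL#1 had 20 cells in each class, and no factor was called.

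Among Il2ra-positive DN cells, 3 of the 8 factors were called lower in cycling cells, where 34.9% of 8992 genes were called, 16.5% lower and 18.4% higher. Bcl11b was at 390.5, 633, 543 and 136 CPM in cycling cells and 988, 1098, 956 and 185 CPM in other cells of WT, preleukemic, T-ALL#1 and T-ALL#2 (log2 change -0.75, SE 0.133, edgeR adjusted p = 0.000324). Cycling cells were lower in 4 of 4 libraries. Ets1 (log2 change -0.52, edgeR adjusted p = 0.00374) and Sox4 (-0.46, edgeR adjusted p = 0.00779) were lower in 4 of 4 libraries too, and the Sox4 call was lost without the preleukemic library (adjusted p = 0.0521) and in thinned cells (adjusted p = 0.0583). Without T-ALL#2, edgeR also called Lef1 (adjusted p = 0.0345) and Myb (adjusted p = 0.0213) lower. Tcf7 was not called, and its ratio was above 0 in WT (0.48, from 20 cycling cells) and below 0 in the other 3 libraries. Median UMIs of cycling cells in this class were 1.75 to 4.71 times those of other cells. Thinned to 2000 UMIs, with WT left out for its 5 cycling cells, edgeR still called Bcl11b and Ets1 and also called Ets2 lower (log2 change -1.15, adjusted p = 0.0138).

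Over all classes together the same 3 factors were called: Bcl11b (log2 change -0.61, SE 0.101, edgeR adjusted p = 0.00231), Ets1 (-0.58, SE 0.111, edgeR adjusted p = 0.00430) and Sox4 (-0.55, SE 0.110, edgeR adjusted p = 0.00495). Each was lower in cycling cells of 4 of 4 libraries, where 52.7% of 11856 genes were called, 26.6% lower and 26.1% higher. Without the library block none of the 3 was called, nor were any of the factors in DP or Il2ra-positive DN cells. Thinned to 2000 UMIs, all 3 kept their call over all classes, and Lef1 was called lower as well (log2 change -0.42, edgeR adjusted p = 0.0225). Tcf7 (-0.10), Myb (-0.23), Lef1 (-0.35), Ets2 (-0.26) and Gfi1 (0.03) were not called. Without T-ALL#2, Myb was called lower as well (edgeR adjusted p = 0.0343).

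**Figure D5:**
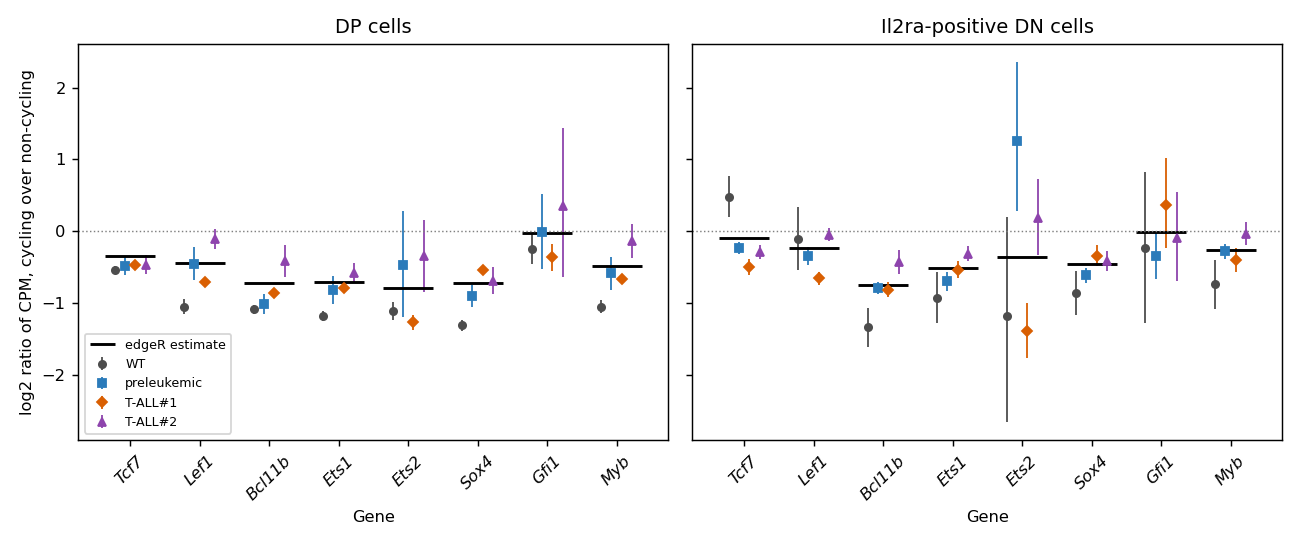
Log2 ratio of CPM in cycling over non-cycling cells of the same library, with 95% counting intervals, for DP cells (left) and Il2ra-positive DN cells (right), and the edgeR estimate over the 4 libraries as a black line. Bcl11b, Ets1 and Sox4 lie below 0 in each library of both panels, with Bcl11b estimates of -0.72 and -0.75.

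Genes that work with the 8 factors also differed between the preleukemic and WT libraries. Of 20 commitment partners and Notch genes, 19 were tested against WT, 2 were called higher and 7 lower, with a median log2 difference of -0.12 beside -0.03 over all genes. Of all genes tested in this comparison 4.46% were called higher and 4.85% lower. Runx1, a partner in commitment, was 2.01-fold and Zfpm1, a GATA cofactor, 2.31-fold higher. Zbtb7b, which directs CD4 cells, was 43.7-fold and Id3, an E-protein inhibitor, 13.1-fold lower. Of 18 structural and recombination genes 7 were called lower and 0 higher, led by Cd5 (8.88-fold), Rag2 (5.07-fold), Ptcra (5.0-fold) and Rag1 (4.25-fold). Of 18 progenitor genes that normally fall silent at commitment only 3 reached the level for a test, and Hhex (35.4-fold) and Lyl1 (31.2-fold) were called higher. Of 13 paralogs of the factors 4 were tested and 0 called in either direction. These are sums over all cells. Cells with Cd4 alone were 21.7% of WT and 0.825% of preleukemic cells, and DP cells 49.7% and 3.6%. Within Il2ra-positive DN cells, 3 of 18 structural genes were called lower and 0 higher, and of 5 progenitor genes tested 2 were higher and 2 lower. Of 16 partners and Notch genes tested there 2 were higher and 4 lower. Their median log2 difference was 0.18, beside -0.04 over all genes. Of 6 paralogs tested 1 was higher and 2 lower. In that class 3.97% of all genes were higher and 4.79% lower. The part of the class shares in the folds was not tested.

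In T-ALL#1 against the preleukemic library, 4.63% of all genes were called higher and 11.8% lower. Of 18 tested partners and Notch genes, 8 were called higher and 2 lower there. They included the Notch targets Hes1 (2.35 to 171 CPM), Dtx1 (12.8 to 276 CPM) and Nrarp (1.08 to 15.5 CPM). In T-ALL#2, where 3.95% of all genes were called higher and 27.1% lower, 4 of 16 were called higher and 5 lower. Hes1 was at 114 CPM and Dtx1 at 136 CPM there. Structural genes were called higher for 2 and lower for 2 of 18 in T-ALL#1, and higher for 1 and lower for 8 of 18 in T-ALL#2. Paralogs were called higher for 1 and lower for 1 of 4 in T-ALL#1, and lower for 2 of 4 in T-ALL#2. All 3 progenitor genes tested (Hhex, Lyl1 and Cd44) were called lower in both leukemias. Hhex was at 57.5 CPM in the preleukemic library and at 0.254 and 0.552 CPM in T-ALL#1 and T-ALL#2. Against WT, 4.72% of all genes were called higher and 12.9% lower in T-ALL#1, and 5.19% and 30.2% in T-ALL#2. Partners and Notch genes were called higher for 5 and lower for 6 of 20 in T-ALL#1, and for 4 and 8 of 19 in T-ALL#2. Structural genes were higher for 1 and lower for 7 of 18, and for 0 and 13 of 18. The 1 progenitor gene tested (Cd44) was lower in both leukemias, and of 4 paralogs 0 were called in T-ALL#1 and 2 were lower in T-ALL#2.

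Between Il2ra-positive DN and DP cells, edgeR called 1.25% of all genes higher and 1.59% lower. Of 18 tested partners 0 were higher and 2 lower, among them Themis (log2 change -1.06), a regulator of thymocyte selection. Of 18 structural genes 0 were higher and 2 lower, Rag1 (-1.72) and Cd5 (-1.03), and none of the 2 progenitor genes and 6 paralogs tested was called. Over all classes, edgeR called 26.1% of all genes higher and 26.6% lower in cycling cells. It called 1 of 20 partners higher and 8 lower, and 0 of 18 structural genes higher and 9 lower. Of 9 progenitor genes 3 were lower, and of 9 paralogs 3 were higher and 4 lower. In cycling DP cells, with 24.4% of all genes higher and 27.4% lower, 1 of 18 partners was higher and 9 lower. There 11 of 18 structural genes and 1 of 2 progenitor genes were lower. In cycling Il2ra-positive DN cells 18.4% of all genes were higher and 16.5% lower. The counts were 0 higher and 10 lower of 17 partners, 9 of 18 structural genes lower and 1 of 2 progenitor genes lower. Of the 4 paralogs tested in each class, 1 was higher and 3 lower in cycling cells. The one that rose was Mybl2, a cell-cycle relative of Myb, with a log2 change of 3.57 in DP and 4.15 in Il2ra-positive DN cells, while Fli1, Elf1 and Elk3, all of the ETS family, fell in both.

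Across 38 sums of library, class and cycling state with at least 30 cells, the genes most like each factor were ranked by the correlation of log2(CPM + 1) over 5773 genes. Bcl11b was most like Abi3 (Pearson r = 0.964), Sox4 like Rhoh (0.940), Ets1 like Tspan32 (0.930) and Myb like Cux1 (0.922). Tcf7 was most like Rcbtb2 (0.900), Gfi1 like Tcf3 (0.876), Lef1 like Mfhas1 (0.868) and Ets2 like Atl2 (0.863). Among the factors themselves, Gfi1 and Myb (0.828) and Bcl11b and Sox4 (0.820) were closest, and Lef1 and Gfi1 furthest apart (-0.381). The sums share libraries, depth and cells of 1 thymus, so these values describe 4 thymi and carry no test.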

How the data were processed

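Thymus cells of 4 mice were profiled by 10x 3′ single-cell RNA sequencing, 1 library each. The authors deposited UMI counts per gene and barcode, made with Cell Ranger 3.0.2 for 3 libraries and Cell Ranger 4 for T-ALL#2, with mm10 in the submitters' processing notes. The sources do not say which library used which kit chemistry. For T-ALL#2, cells were called at 10% of the 99th percentile of UMIs of the top 10000 barcodes, which was 3416 UMIs. Cells with more than 500 genes and under 10% mitochondrial UMIs were kept. Singlets had been sorted, and no doublet caller was run. A limit of 3 SD on genes per cell was an alternative.

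CPM were computed from summed UMIs, with exact Poisson 95% intervals for levels and Clopper-Pearson intervals for shares. Intervals cover counting error only. Sums per library and class were tested with edgeR 4.0.16 in R 4.3.3 (quasi-likelihood test, filterByExpr, TMM, adjusted p threshold 0.05, 8 sums from 4 libraries in each test). The library was a block because both sums came from 1 animal. A class needed 20 cells. DESeq2 1.42.0 was an alternative. On simulated data edgeR recovered 78, 76, 64 and 58% of genes changed by 1 on the log2 scale, for cycling cells of all classes, DN against DP cells, cycling DP cells and cycling Il2ra-positive DN cells in turn. The simulation used a fixed dispersion, larger than the common dispersion fitted in each test, and changed only genes above a limit on counts. These percentages therefore need not hold for the data.

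The 8 factors are named throughout. Genes of the partner, structural, progenitor and paralog lists are named only as the largest changes among those called. The values of 1 listed gene are not reported here. The members and lists were chosen with earlier results of these data known. Promoters and coordinates were read from RefSeq and GENCODE tables of GRCm38. Python 3.11.15, NumPy 2.4.6, SciPy 1.17.1, pandas 2.3.3 and matplotlib 3.10.9 were used.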

Additional observations from a re-analysis of the deposited data

Results flagged for a closer look

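Some factors moved in opposite directions with cycling in different libraries, and these differences between libraries were not tested. Over all cells, the log2 ratio of cycling over non-cycling cells was -0.58 in WT and 0.55 in the preleukemic library for Ets2. For Gfi1 it was 0.23 in WT and -0.48 in the preleukemic library. In Il2ra-positive DN cells the ratio for Tcf7 was 0.48 in WT, from 20 cycling cells, and -0.23, -0.50 and -0.29 in the preleukemic, T-ALL#1 and T-ALL#2 libraries.

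Droplets of T-ALL#2 with under 100 UMIs, which the comparisons did not use, carried all 8 factors. There were 1187978 such droplets with 1814232 UMIs in all. Tcf7 stood at 299 CPM, Lef1 at 466 CPM, Bcl11b at 158 CPM and Ets1 at 272 CPM. Ets2 stood at 21.5 CPM, Sox4 at 241 CPM, Gfi1 at 12.7 CPM and Myb at 150.5 CPM. The other libraries were deposited as called cells, so the same measure was not analysed there.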

How the results depend on the processing

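Tests between classes rested on 4 thymi and 3 residual degrees of freedom, so small changes could be missed, and values between conditions rested on 1 library a condition or 2 leukemias. Without the replicate block, which treats the sums of 1 animal as unrelated, edgeR called 922 genes with cycling over all classes (6243 with the block), 1399 in DP cells (5057) and 615 in Il2ra-positive DN cells (3140). Between Il2ra-positive DN and DP cells it called 0 (295 with the block), with 1114 genes at an unadjusted p under 0.05. Thinned cells gave 3791, 615 and 608 genes for the cycling comparisons, with fewer genes and cells tested. In DP cells only WT and T-ALL#1 remained then, and WT was left out for Il2ra-positive DN cells. Leaving out 1 library in turn gave 0 to 417 genes between DN and DP cells and 1852 to 3314 with cycling in Il2ra-positive DN cells. The count of 0 was without the preleukemic library (2394 genes at an unadjusted edgeR p under 0.05), and it was 27 without T-ALL#1, 37 without T-ALL#2 and 1852 and 2061 for cycling DN cells without the preleukemic library or T-ALL#1. The DN and DP comparison also gave 1063 genes with no filter on low counts, 1155 with the DESeq2 Wald test, 113 with an upper limit on genes per cell, 465 in non-cycling cells, 695 with no Cd8b1 in DN cells and 476 with DP cells lacking Il2ra. The cause of these shifts was not tested. Between libraries, equal weighting of cells gave 1 factor for preleukemic over WT (2 otherwise) and 5 for T-ALL#2 over WT (3 otherwise), and TMM scaling gave 1 for T-ALL#1 over WT (0 otherwise).

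The sign changed only for uncalled log2 changes. For Gfi1 with cycling over all classes it was -0.0043 without the block, -0.0015 with DESeq2 size factors, -0.00046 with the Wald test, -0.10 to 0.12 with 1 library left out (lowest without WT) and -0.025 with the upper limit. For Gfi1 in DP cells it was 0.014 without the block, 0.013 with the Wald test, -0.042 to 0.086 with 1 library left out (highest without T-ALL#1) and 0.065 in thinned cells. For Gfi1 in Il2ra-positive DN cells it was 0.059 with no filter, 0.0021 without WT, -0.17 to 0.10 with 1 library left out (highest without the preleukemic library) and 0.00019 with the upper limit. With 1 library left out, Ets2 changed with cycling by -0.56 to 0.061 over all classes and -0.70 to 0.28 in Il2ra-positive DN cells, and Tcf7 by -0.26 to 0.019 in the latter, each highest without T-ALL#1. Between DN and DP cells, Lef1 was 0.012 without the block, 0.0015 with size factors, 0.0063 with the Wald test, -0.077 to 0.074 with 1 library left out (highest without WT) and 0.047 with DP cells lacking Il2ra, and Myb was -0.032 to 0.29 with 1 library left out (lowest without the preleukemic library) and -0.0049 in thinned cells.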
